A study of Mus musculus with 9 samples.

Results

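Integrins are the receptors by which a macrophage holds on to matrix, to other cells and to particles it takes up. Each is a pair of 1 alpha and 1 beta chain, and a chain reaches the cell surface only once it has found a partner, so the set of chains a cell transcribes limits the receptors it can build. In synovial macrophages they bear on how the cells sit in the lining or in the matrix below it, and the leukocyte-restricted receptors that share the Itgb2 chain are also the surface markers by which macrophages are sorted. The genes described here are 10 chains of 53465 genes in the count table, taken by symbol: the beta chains Itgb1, Itgb2 and Itgb5 and the alpha chains Itgav, Itga4, Itga6, Itga9, Itgal, Itgam and Itgax. All 10 matched and all 10 passed the filter on low counts, which left 12610 genes in the tests.

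Macrophages were sequenced in 3 groups of 3 libraries. Lining macrophages (libraries A, B and C) and interstitial macrophages (D, E and F) came from synovial tissue of the hind paw of healthy Cx3cr1-GFP mice, whose green fluorescent protein (GFP) reports activity of the fractalkine receptor gene, and were sorted as CD45+CD11b+F4/80+GFP+ and CD45+CD11b+F4/80+GFP- cells. The third group, libraries G, H and I, holds bone marrow-derived macrophages (BMDM), cultured for 5 days in MCSF-conditioned medium from precursors of C57BL/6 mice. MCSF is macrophage colony-stimulating factor. Poly(A) RNA was read as single 101 bp reads, and the ages of the mice are not given in the sources used here. CD11b is the protein of Itgam, so this member took part in choosing both sorted groups, and GFP stands for Cx3cr1, which is not a member. The BMDM differ from the sorted cells in strain label, tissue, sorting and culture at once, and these cannot be told apart. The labels do not say whether libraries of a group are separate animals, so each p-value measures the spread between these libraries, which may be technical.

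Total counts ranged from 2194920 to 11137451 in the sorted libraries and from 19427273 to 22499823 in BMDM. A floor of 3 counts is 0.273 to 1.45 CPM (counts scaled to library size by the trimmed mean of M values, TMM) in a sorted library and 0.13 to 0.149 CPM in BMDM, and covers counting error only. Of the 8 macrophage identity genes every library had all above 0, and their summed level was 24027 to 30709 CPM in lining, 13172 to 22796 CPM in interstitial and 14908 to 18896 CPM in BMDM. Cx3cr1, which defined the sort, was at 663 to 775 CPM in lining and 2.66 to 7.86 CPM in interstitial. Of 7 T cell marker genes the summed level was 23.7 to 54.8 CPM in lining, 36.1 to 70.0 CPM in interstitial and 76.1 to 94.9 CPM in BMDM. The CD3 chain genes Cd3d, Cd3e and Cd3g were at or under 0.573 CPM in all libraries, and the T cell receptor gene Trac had group means of at most 0.250 CPM. The sums came mainly from Cd4 in the sorted libraries (19.9 to 51.4 CPM, against 1.71 to 2.24 CPM in BMDM) and from Cd28 in BMDM (74.1 to 93.1 CPM, against 2.91 to 29.3 CPM in the sorted libraries). The female-specific transcript Xist was at 96.0 to 269 CPM in 5 sorted libraries, at 0 in interstitial D and at 0 to 0.130 CPM in BMDM, so sex and culture cannot be told apart, and D is the exception among the sorted libraries. In RNA from many cells, a lower level can be fewer cells of a type or less RNA per cell, and these cannot be told apart.

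Promoter sequences are shown for 4 members because they carry the contrast that the results turn on: Itgb5 and Itgav, partners that differed together between lining and interstitial cells, and Itgam and Itgax, neighbours on chromosome 7 that share the partner Itgb2 but varied very differently between libraries. The RefSeq promoter table (GRCm38.p6) held 7 of the 10 members. Each window runs from 250 bases before the RefSeq transcript start to 50 bases after it, on the plus strand, and is written 5′ to 3′. Capitals mark GAGGAA, the core of the site bound by PU.1, the lineage factor of myeloid cells, and GGGCGG, the box bound by Sp1, each on either strand, so that TTCCTC and CCGCCC are the same motifs read from the other strand. The Itgb5 window is chr16:33829415-33829714, that of Itgav chr2:83724147-83724446, that of Itgam chr7:128062390-128062689 and that of Itgax chr7:128129300-128129599.
Itgb5: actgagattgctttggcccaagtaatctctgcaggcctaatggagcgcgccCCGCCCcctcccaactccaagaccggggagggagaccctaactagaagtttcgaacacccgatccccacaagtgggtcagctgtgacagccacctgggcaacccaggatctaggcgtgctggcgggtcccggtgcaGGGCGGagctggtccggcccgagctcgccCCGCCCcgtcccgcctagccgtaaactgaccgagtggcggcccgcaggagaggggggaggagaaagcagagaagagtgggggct
Itgav: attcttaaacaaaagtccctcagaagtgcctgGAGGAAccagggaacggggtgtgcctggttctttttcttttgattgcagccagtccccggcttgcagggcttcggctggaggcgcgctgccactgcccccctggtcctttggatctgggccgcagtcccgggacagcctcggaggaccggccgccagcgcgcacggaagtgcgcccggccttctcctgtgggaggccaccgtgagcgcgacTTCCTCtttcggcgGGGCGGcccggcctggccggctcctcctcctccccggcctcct
Itgam: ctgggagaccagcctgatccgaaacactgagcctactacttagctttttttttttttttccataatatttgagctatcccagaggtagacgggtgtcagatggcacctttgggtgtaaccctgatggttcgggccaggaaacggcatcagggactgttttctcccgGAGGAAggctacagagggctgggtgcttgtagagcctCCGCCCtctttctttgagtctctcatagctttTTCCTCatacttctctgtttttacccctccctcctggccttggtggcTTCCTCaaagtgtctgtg
Itgax: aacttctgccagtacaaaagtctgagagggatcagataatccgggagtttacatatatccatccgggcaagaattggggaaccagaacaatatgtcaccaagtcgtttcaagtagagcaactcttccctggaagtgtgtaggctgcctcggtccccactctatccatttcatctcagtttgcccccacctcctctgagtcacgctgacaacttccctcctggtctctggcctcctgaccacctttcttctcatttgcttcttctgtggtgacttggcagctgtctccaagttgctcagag
The Itgb5 window had 3 Sp1 boxes and no GAGGAA, with a GC content of 65.7% and 20 CpG pairs. Its partner Itgav had 1 Sp1 box, 2 GAGGAA cores and 24 CpG pairs at 67.3% GC. Itgam had 3 GAGGAA cores and 1 Sp1 box at 50.3% GC with 6 CpG pairs. Itgax had neither motif, 5 CpG pairs and, 56 bases before the start, the AP-1 letters TGANTCA. Among the 32851 promoters of the table, 28.3% held GAGGAA, 35.7% GGGCGG and 7.81% TGANTCA, and the median promoter had 7 CpG pairs (quartiles 3 and 20). The partners Itgb5 and Itgav thus both had windows at or above the upper quartile of CpG pairs, and Itgam and Itgax had windows below the median. High CpG content was not particular to these partners. Among the other members held, Itgb1 had 27 CpG pairs at 67.3% GC, and Itga4 and Itga9 had 10 each. The Itga9 window (chr9:118711442-118711741) lies inside the gene of the count table, whose first base is 118606690. None of Itgb1, Itga4 and Itga9 passed the test between lining and interstitial macrophages given below. These are matches of letters, and no binding was measured.

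The first question was how the chains differ between lining and interstitial macrophages. Itgb5, Itgav, Itga6 and Itgb2 were higher in lining macrophages, no chain was lower, and 6 chains did not pass the test (edgeR, Benjamini-Hochberg adjusted p under 0.05 over all genes tested, here termed called). Over all genes 3.74% were called higher in lining and 2.05% lower, 5.79% in all. The 4 called chains are also the 4 whose libraries did not overlap between the groups, against 18.6% of all genes (9.92% higher and 8.66% lower). The median log2 fold change of the 10 chains was 0.27, against -0.01 over all genes.

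Itgb5 encodes the beta chain whose only known alpha partner is Itgav, and the receptor they form binds vitronectin and the bridging protein Mfge8 on apoptotic cells. Itgb5 (ENSMUSG00000022817, GRCm38 chromosome 16, 33829665 to 33949153, plus strand) was at 955, 777 and 621 CPM in lining A to C, 58.1, 73.2 and 58.0 CPM in interstitial D to F and 267, 253 and 239 CPM in BMDM G to I. Lining libraries were all above BMDM, and BMDM were all above interstitial libraries, with no overlap between any groups. Lining exceeded interstitial macrophages 12.4-fold (log2 fold change 3.63 ± 0.18 standard error, SE, edgeR adjusted p = 1.03e-06) and BMDM 3.10-fold (1.63 ± 0.17, adjusted p = 1.00e-05). Interstitial macrophages were 3.99-fold below BMDM (-1.99 ± 0.17, edgeR adjusted p = 2.26e-06). The cultured macrophages thus lay between both sorted populations, and each step of that order passed the test.

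Itgav, the alpha chain that also pairs with Itgb1, Itgb3, Itgb6 and Itgb8 (ENSMUSG00000027087, chromosome 2, 83724397 to 83806916, plus strand), was at 390.4, 367 and 295 CPM in lining, 74.9, 136 and 106 CPM in interstitial and 298, 289 and 291 CPM in BMDM. The interstitial libraries were the low ones, and lining C lay within the BMDM range while A and B lay above it. Itgav was 3.29-fold higher in lining than in interstitial macrophages (1.72 ± 0.20 SE, edgeR adjusted p = 2.61e-04) and 2.75-fold lower in interstitial macrophages than in BMDM (-1.46 ± 0.19, adjusted p = 7.91e-05). Lining and BMDM differed by 0.26 ± 0.19 and did not pass (adjusted p = 0.288). The partners therefore shared their low group but not their top: in lining, Itgb5 stood above BMDM and Itgav was not called.

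**Figure D1:**
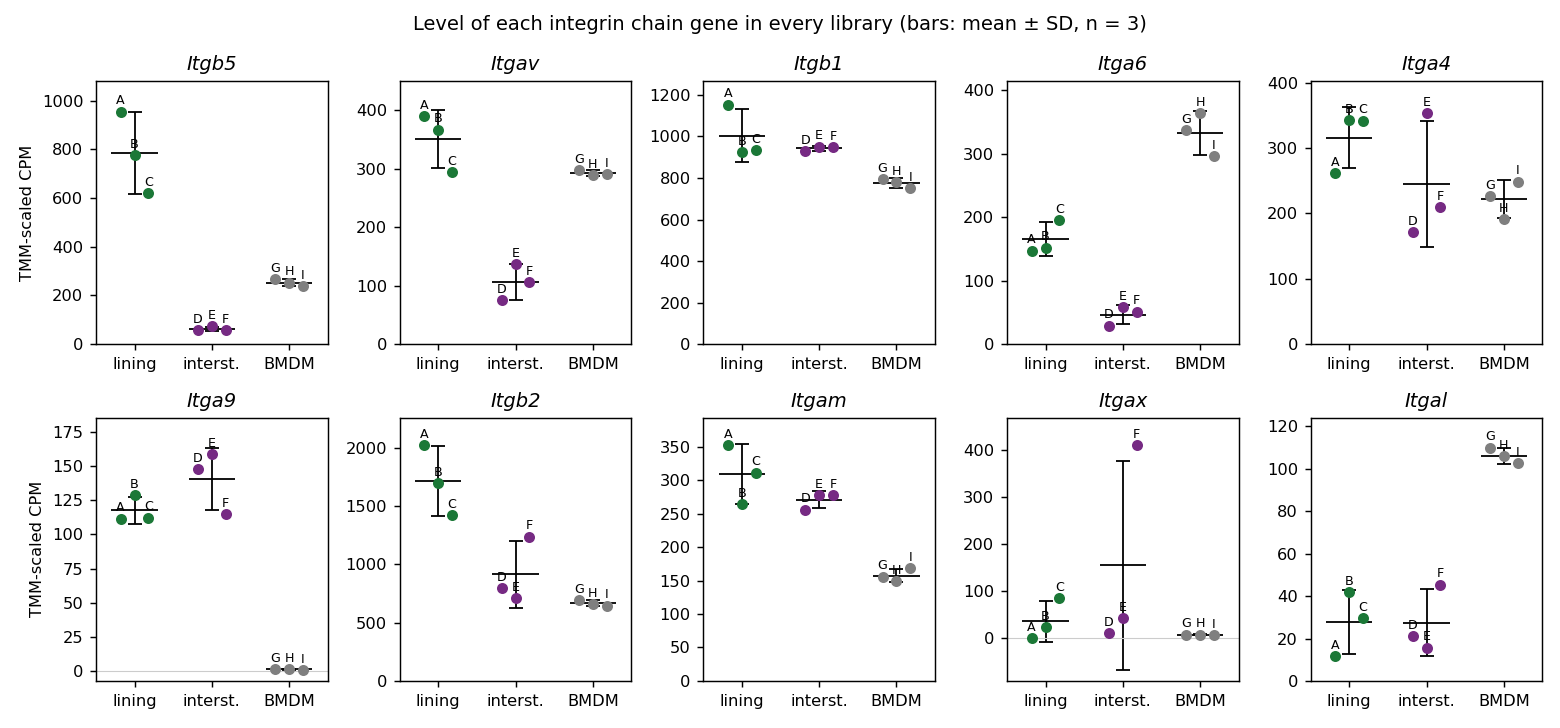
Level of each of the 10 chains in every library, in TMM-scaled CPM on a linear axis that differs between panels, with points for libraries A to I and bars for the mean and SD of 3 libraries. Itgb5 steps from 784 CPM in lining through 253 CPM in BMDM to 63.1 CPM in interstitial macrophages, and Itgax is spread within the sorted groups, with 411 CPM in interstitial F.

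Itgb1 is the most widely shared beta chain and the partner of Itga4, Itga6 and Itga9 as well as of Itgav. Itgb1 (ENSMUSG00000025809, chromosome 8, 128685654 to 128733200, plus strand) was at 1152, 926 and 933 CPM in lining, 928, 950.3 and 949 CPM in interstitial and 794, 781 and 750.2 CPM in BMDM. Lining and interstitial libraries overlapped, and all 6 lay above BMDM. The log2 fold change between lining and interstitial macrophages was 0.09 ± 0.13 SE (edgeR adjusted p = 0.761). Against BMDM, Itgb1 was 1.29-fold higher in lining (0.37 ± 0.13, adjusted p = 0.0320), a call that was lost without any 1 of lining A or B or BMDM G, H or I (adjusted p up to 0.223), and interstitial macrophages had 0.28 ± 0.13 (adjusted p = 0.0893). Of the 10 chains Itgb1 thus had the smallest range of group means relative to their size, from 775 to 1004 CPM.

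Itga6 is the laminin-binding partner of Itgb1 and Itgb4. Itga6 (ENSMUSG00000027111, chromosome 2, 71745616 to 71858416, plus strand) was at 147, 152 and 196 CPM in lining, 29.3, 58.3 and 51.2 CPM in interstitial and 337, 364 and 296 CPM in BMDM. All 3 groups were apart, in the order BMDM, lining, interstitial. Lining exceeded interstitial macrophages 3.50-fold (1.81 ± 0.22 SE, edgeR adjusted p = 4.38e-04) and was 2.02-fold below BMDM (-1.01 ± 0.21, adjusted p = 0.00219), and interstitial macrophages were 7.05-fold below BMDM (-2.82 ± 0.23, adjusted p = 1.21e-06). Itga6 was the only member called in all 3 comparisons beside Itgb5, with a different group at the top.

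Itga4, which with Itgb1 binds Vcam1 and fibronectin and with Itgb7 the gut addressin, was called in no comparison. Itga4 (ENSMUSG00000027009, chromosome 2, 79255426 to 79333123, plus strand) was at 262, 343 and 342 CPM in lining, 172, 353 and 209.9 CPM in interstitial and 227, 191 and 249 CPM in BMDM. The interstitial libraries alone span the whole range, with E highest and D lowest of all 9. The log2 fold changes were 0.36 ± 0.23 SE for lining against interstitial (edgeR adjusted p = 0.439), 0.51 ± 0.23 for lining against BMDM (adjusted p = 0.0979) and 0.15 ± 0.23 for interstitial against BMDM (adjusted p = 0.641).

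Itga9 pairs with Itgb1 alone and binds tenascin C, osteopontin and Vcam1. Itga9 (ENSMUSG00000039115, chromosome 9, 118606690 to 118901003, plus strand) was at 112, 129 and 112 CPM in lining, 148, 159 and 115 CPM in interstitial and 1.25, 1.54 and 0.784 CPM in BMDM. The sorted groups overlapped, and every sorted library was far above every culture. The BMDM levels rest on 29, 31 and 17 counts, which is above the floor of 3. Itga9 was 98.2-fold higher in lining than in BMDM (6.62 ± 0.26 SE, edgeR adjusted p = 3.87e-09) and 117-fold higher in interstitial macrophages than in BMDM (6.87 ± 0.26, adjusted p = 3.80e-09), and lining against interstitial gave -0.26 ± 0.19 (adjusted p = 0.516). Fibroblast marker genes moved with this difference: the summed level of 7 such genes was 170 to 303 CPM in lining, 191 to 692 CPM in interstitial and 2.03 to 2.73 CPM in BMDM, with Lum at 0 in all BMDM and Dcn at 1 count in H alone, and their part in the result was not tested.

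Itgb2 is the beta chain of the leukocyte integrins and the partner of Itgam, Itgax and Itgal. Itgb2 (ENSMUSG00000000290, chromosome 10, 77530252 to 77565708, plus strand) was at 2023, 1697 and 1421 CPM in lining, 795, 709 and 1240.0 CPM in interstitial and 696, 658 and 646 CPM in BMDM. The groups did not overlap, but interstitial F lay closer to lining C than to the other interstitial libraries. Itgb2 was 1.87-fold higher in lining than in interstitial macrophages (0.91 ± 0.20 SE, edgeR adjusted p = 0.0223), and the call was lost without any 1 of A, B, D or E, where the adjusted p ran up to 0.11. It was 2.57-fold higher in lining than in BMDM (1.36 ± 0.21, adjusted p = 2.20e-04), and interstitial against BMDM gave 0.46 ± 0.20 (adjusted p = 0.0859).

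Itgam encodes CD11b, a complement receptor chain on which both sorted groups were gated. Itgam (ENSMUSG00000030786, chromosome 7, 128062640 to 128118491, plus strand) was at 353, 264 and 312 CPM in lining, 256, 278 and 278 CPM in interstitial and 156, 149 and 168 CPM in BMDM. The sorted groups overlapped at about the same level, above all BMDM. The log2 fold change was 0.19 ± 0.13 SE between lining and interstitial macrophages (edgeR adjusted p = 0.490), and Itgam was 1.96-fold higher in lining than in BMDM (0.97 ± 0.14, adjusted p = 1.18e-04) and 1.72-fold higher in interstitial macrophages than in BMDM (0.78 ± 0.13, adjusted p = 5.62e-04). Because the sort selected cells by this protein and the BMDM were not sorted, selection and level cannot be told apart here. A counting limit applies to its level: 3450 of its 5024 exon bases (68.7%) also belong to the annotated gene Gm49368 on the same strand, and reads in such bases count for neither gene under the settings in the file header. Gm49368 itself had 2 counts in lining B, 1 in BMDM I and 0 elsewhere. The shared bases are the same for each library, so the limit bears first on levels set beside other genes. Whether the use of the shared exons differed between groups was not tested.

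Itgax, the CD11c chain that is a customary dendritic cell marker, varied more between libraries of a group than between groups. Itgax (ENSMUSG00000030789, chromosome 7, 128129547 to 128150657, plus strand) was at 0, 23.1 and 84.9 CPM in lining, 11.1, 42.4 and 411 CPM in interstitial and 7.35, 7.10 and 5.76 CPM in BMDM. Lining A had no count in 2194920, which allows up to 1.45 CPM, and interstitial F alone held 1935 of the 2426 interstitial counts. The log2 fold change of lining against interstitial was -2.12 ± 1.51 SE (edgeR adjusted p = 0.516), and without interstitial F it turned to 0.33 (adjusted p = 0.907). Against BMDM it was 2.41 ± 1.56 in lining (adjusted p = 0.263) and 4.53 ± 1.64 in interstitial macrophages (adjusted p = 0.0641), the latter called without any 1 of A, C, D or E (adjusted p down to 0.0178). The summed level of 7 dendritic cell marker genes was 6.79 to 42.8 CPM in lining and 93.7 to 141 CPM in interstitial. In BMDM it was 4.19 to 4.97 CPM. The highest sum belonged to interstitial D, whose Itgax was 11.1 CPM. Cd209a had the highest interstitial mean of these genes, 66.3 CPM against 11.6 CPM in lining. It was called lower in lining (edgeR adjusted p = 0.0442), and the other 4 genes tested were not called. Among these 4, Zbtb46 had means of 6.94 CPM in lining and 19.4 CPM in interstitial, without overlap. The defining gene Flt3 had overlapping libraries, with means of 8.05 and 10.2 CPM, and was at 0 in lining A. Clec9a was at 0 in all interstitial libraries. The summed level of 5 monocyte marker genes was 48.5, 149 and 191 CPM in lining A to C, 53.2, 183 and 349.6 CPM in interstitial D to F and 55.1 to 72.0 CPM in BMDM. Within each sorted group it had the same order of libraries as Itgax, with F highest. The part of dendritic cells and of monocytes in the Itgax levels was not tested.

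Itgal, the alpha chain of LFA-1, the receptor for the Icam proteins, lies on chromosome 7 (ENSMUSG00000030830, 127296260 to 127335138, plus strand). Its levels were 11.6, 42.0 and 29.7 CPM in lining, 21.3, 15.7 and 45.5 CPM in interstitial and 110.0, 106 and 103 CPM in BMDM. The sorted groups overlapped and every BMDM library lay above both. Itgal was 3.66-fold lower in lining than in BMDM (-1.87 ± 0.44 SE, edgeR adjusted p = 0.00610) and 3.87-fold lower in interstitial macrophages than in BMDM (-1.95 ± 0.44, adjusted p = 0.00459). Lining against interstitial gave 0.08 ± 0.44 (adjusted p = 0.950). T cells also carry this chain: of their markers given above, Cd28 and the summed level were highest in BMDM like Itgal, Cd4 was highest in the sorted cells, and Cd3d, Cd3e and Cd3g were at or near 0 in all libraries. The part of T cells in the Itgal levels was not tested.

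Set against the cultured cells, which serve both comparisons as the same controls, 7 of the 10 chains were called in lining: Itgb5, Itgam, Itga9, Itgb1 and Itgb2 were higher, and Itgal and Itga6 lower. Over all genes 43.5% were called in this comparison (23.1% higher and 20.5% lower). In interstitial macrophages 6 were called, with Itgam and Itga9 higher and Itgav, Itgb5, Itgal and Itga6 lower, where 44.8% of all genes were called (23.4% higher and 21.3% lower). Libraries did not overlap for 8 of the 10 chains in lining against BMDM, where 63.1% of all genes did not (29.2% higher and 33.9% lower). In interstitial against BMDM this held for 9 of 10 chains and for 62.2% of all genes (28.4% higher and 33.8% lower). The median log2 fold change of the chains was 0.74 in lining and 0.21 in interstitial macrophages, against 0.00 and -0.01 over all genes. Itgb5 had opposite signs in these comparisons, above BMDM in lining and below in interstitial macrophages, and the test of that difference is the lining against interstitial contrast given above.

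**Figure D2:**
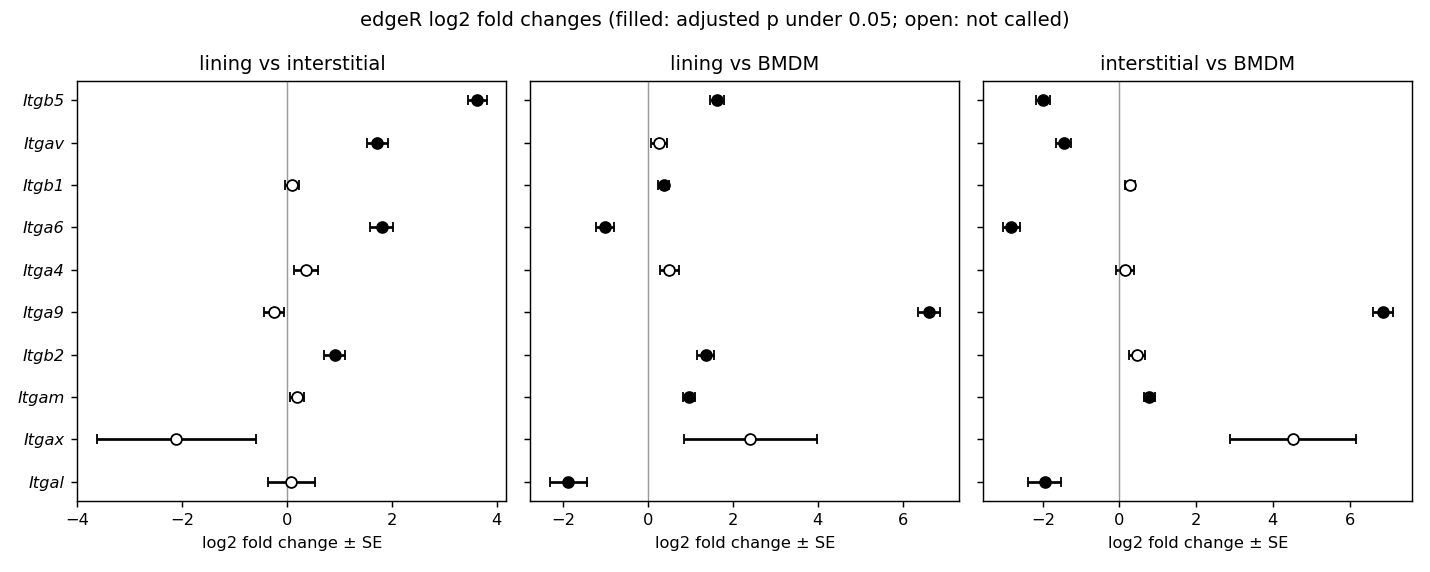
The log2 fold change ± SE of each chain in the 3 comparisons, with filled points for genes called by edgeR at an adjusted p under 0.05 and open points for the others. Itgb5 is at 3.63, 1.63 and -1.99 from left to right, Itga9 is near 0 only in the left panel, and the widest bars are those of Itgax.

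Levels of different genes are compared here per length, as RPKM, the TMM-scaled CPM divided by the kilobases of merged exons. In lining macrophages the order of mean RPKM was Itgb2 at 562 ± 98.6 (SD, n = 3), Itgb1 at 246 ± 31.5 and Itgb5 at 233 ± 49.8, the last pair overlapping. The alpha chains of the lining followed at 61.6 ± 8.87 RPKM for Itgam, 32.7 ± 4.63 for Itgav, 22.6 ± 3.33 for Itga4, 18.3 ± 2.97 for Itga6, 15.3 ± 1.28 for Itga9, 7.49 ± 9.13 for Itgax and 4.23 ± 2.32 for Itgal, with overlap between Itga4 and Itga6 and between Itga6 and Itga9. Itgax ran from 0 to 17.7 RPKM and overlapped Itga6, Itga9 and Itgal. By merged exon length the beta chains were thus the most abundant members in lining, with Itgb5 level with Itgb1. By the unshared length given below, Itgam overlapped Itgb5 in lining.

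In interstitial macrophages Itgb2 at 299.7 ± 93.4 RPKM and Itgb1 at 231 ± 3.02 RPKM overlapped, and Itgb5 at 18.8 ± 2.61 RPKM was level with Itga9 at 18.3 ± 2.97 and Itga4 at 17.5 ± 6.86. The other alpha chains of these cells were at 53.9 ± 2.55 RPKM for Itgam, 32.2 ± 46.3 for Itgax, 9.84 ± 2.86 for Itgav, 5.13 ± 1.68 for Itga6 and 4.18 ± 2.41 for Itgal, and Itgax, at 2.31 to 85.6 RPKM, overlapped every one of these alpha chains. In BMDM the order of RPKM was Itgb2 (218 ± 8.52), Itgb1 (189.9 ± 5.49), Itgb5 (75.2 ± 4.20), Itga6 (36.9 ± 3.79), Itgam (31.4 ± 1.96), Itgav (27.2 ± 0.462), Itgal (16.2 ± 0.568), Itga4 (15.9 ± 2.07), Itgax (1.40 ± 0.178) and Itga9 (0.155 ± 0.0496). Only Itga6 and Itgam, and Itgal and Itga4, overlapped as neighbours in the order of the cultured cells. Divided by the 1574 bases of Itgam that no other gene shares, its level was 197 ± 28.3 RPKM in lining, 172 ± 8.13 in interstitial and 100.2 ± 6.26 in BMDM, which puts it first among the alpha chains of the list in all 3 groups.

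The make-up of the beta chain transcripts was computed as each chain's percent of the summed RPKM of all 8 beta chains. The 3 beta members made up 99.3% of it in lining, 96.9% in interstitial and 91.3% in BMDM. Itgb5 held 23.0, 22.6 and 20.8% in lining A to C, 3.36, 4.35 and 2.51% in interstitial D to F and 14.3, 14.3 and 13.9% in BMDM G to I. The share of Itgb1 was 23.6 ± 1.87% in lining, 41.5 ± 6.79% in interstitial and 35.9 ± 0.65% in BMDM (SD, n = 3), and that of Itgb2 was 53.5 ± 1.05%, 52.0 ± 6.43% and 41.3 ± 0.315%. In lining macrophages Itgb5 and Itgb1 thus took about equal shares beside Itgb2, whereas interstitial macrophages held mainly Itgb2 and Itgb1. Itgb7, the beta chain with the next share, was at 0.513 ± 0.2% in lining, 2.62 ± 0.889% in interstitial and 7.83 ± 0.624% in BMDM.

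**Figure D3:**
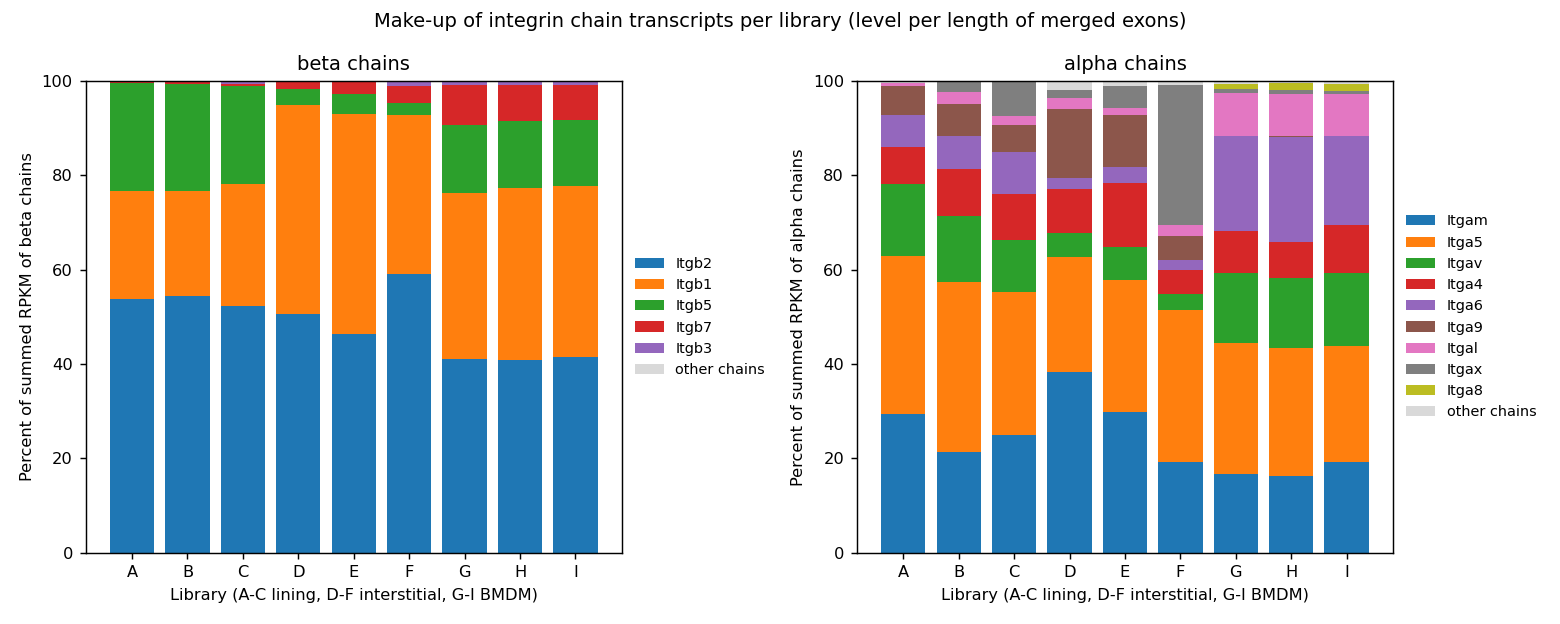
Stacked bars give each chain's percent of the summed RPKM of the beta chains (left) and of the alpha chains (right) in libraries A to C (lining), D to F (interstitial) and G to I (BMDM). Itgb5 takes 20.8 to 23.0% of the beta chains in lining and 2.51 to 4.35% in interstitial libraries, and the Itgam bars use its whole merged exon length, which understates it.

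Of the summed RPKM of the 18 alpha chains, the 7 alpha members made up 66.5% in lining, 70.5% in interstitial and 71.6% in BMDM. Most of the remainder was Itga5, the fibronectin receptor chain that is no member, with 33.2 ± 2.93%, 28.2 ± 3.98% and 26.5 ± 1.6% (SD, n = 3). Itgav held 13.4 ± 2.12% in lining, 5.16 ± 1.71% in interstitial and 15.1 ± 0.329% in BMDM. Itga6 held 7.49 ± 1.1%, 2.62 ± 0.772% and 20.4 ± 1.79% in the same order, and Itga9 6.27 ± 0.506%, 10.3 ± 4.71% and 0.0856 ± 0.0263%. Itgam held 25.3 ± 4% in lining, 29.1 ± 9.6% in interstitial and 17.4 ± 1.51% in BMDM by its merged length, and 51.7 ± 5.27%, 55.7 ± 11.8% and 40.2 ± 2.49% by its unshared length. By the unshared length the share of Itgav is 8.63% in lining, 3.12% in interstitial and 10.9% in BMDM.

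Ratios of chains known to pair were taken within each library, from counts plus 0.5 per exon length, so that no scaling between libraries enters. With 3 libraries against 3, an exact 2-sided permutation test cannot go below p = 0.1, and Benjamini-Hochberg adjustment over the 33 tests (11 ratios in 3 comparisons) takes this smallest value to 0.144, so no ratio could pass 0.05. The ratio of Itgb5 to Itgb1 was 1.01, 1.02 and 0.807 in lining, 0.0762, 0.0936 and 0.0743 in interstitial and 0.408, 0.393 and 0.386 in BMDM. All 3 groups were apart, and the geometric mean in lining was 11.6 times that in interstitial macrophages (log2 difference 3.54, exact permutation p = 0.1).

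Itgav was the scarcer partner of Itgb5 in all 9 libraries. The ratio of Itgav to Itgb5 was 0.128, 0.148 and 0.149 in lining, 0.403, 0.583 and 0.570 in interstitial and 0.350, 0.358 and 0.382 in BMDM. The lining had the lowest ratios and the interstitial libraries the highest, without overlap. Geometric means were 0.141, 0.512 and 0.363, a 3.62-fold lower ratio in lining than in interstitial macrophages (log2 difference -1.86, exact permutation p = 0.1). Beside Itgb1, the ratio of Itgav was 0.133 in lining, 0.0414 in interstitial and 0.143 in BMDM. Lining and BMDM overlapped (log2 difference -0.11, exact permutation p = 0.4).

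The other partners of Itgb1 behaved differently from each other. The ratio of Itga6 to Itgb1 had geometric means of 0.0742 in lining, 0.0214 in interstitial and 0.193 in BMDM, with no overlap between groups (exact permutation p = 0.1 in each comparison). For Itga9 they were 0.0624, 0.0786 and 0.000803, with overlap between the sorted groups (exact permutation p = 0.2) and none with BMDM. For Itga4 they were 0.0916, 0.0724 and 0.0833, with overlap in all 3 comparisons (exact permutation p = 0.4, 0.6 and 0.6). Thus Itga4 was the Itgb1 partner whose ratio was not separated between any of the groups.

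Among the leukocyte integrins, Itgb2 transcripts exceeded the sum of their alpha partners in every library. Itgam, Itgax and Itgal together had 10.9, 11.5 and 18.1% of the RPKM of Itgb2 in lining A to C, 21.7, 28.7 and 36.4% in interstitial D to F and 21.6, 21.9 and 23.8% in BMDM G to I. By the unshared length of Itgam, this chain alone was at 33.8, 30.2 and 42.5% of Itgb2 in lining, 62.5, 76.1 and 43.5% in interstitial and 43.4, 43.8 and 50.5% in BMDM, still below Itgb2 in each library. The ratio of Itgal to Itgb2 had geometric means of 0.00674 in lining, 0.0130 in interstitial and 0.0740 in BMDM, and both sorted groups lay below BMDM (exact permutation p = 0.1). The ratio of Itgax to Itgb2 overlapped between the sorted groups (exact permutation p = 0.2), as its level did. The ratio of Itgb1 to Itgb2 was 0.440 in lining, 0.794 in interstitial and 0.870 in BMDM, with lining below both other groups (exact permutation p = 0.1 each).

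**Figure D4:**
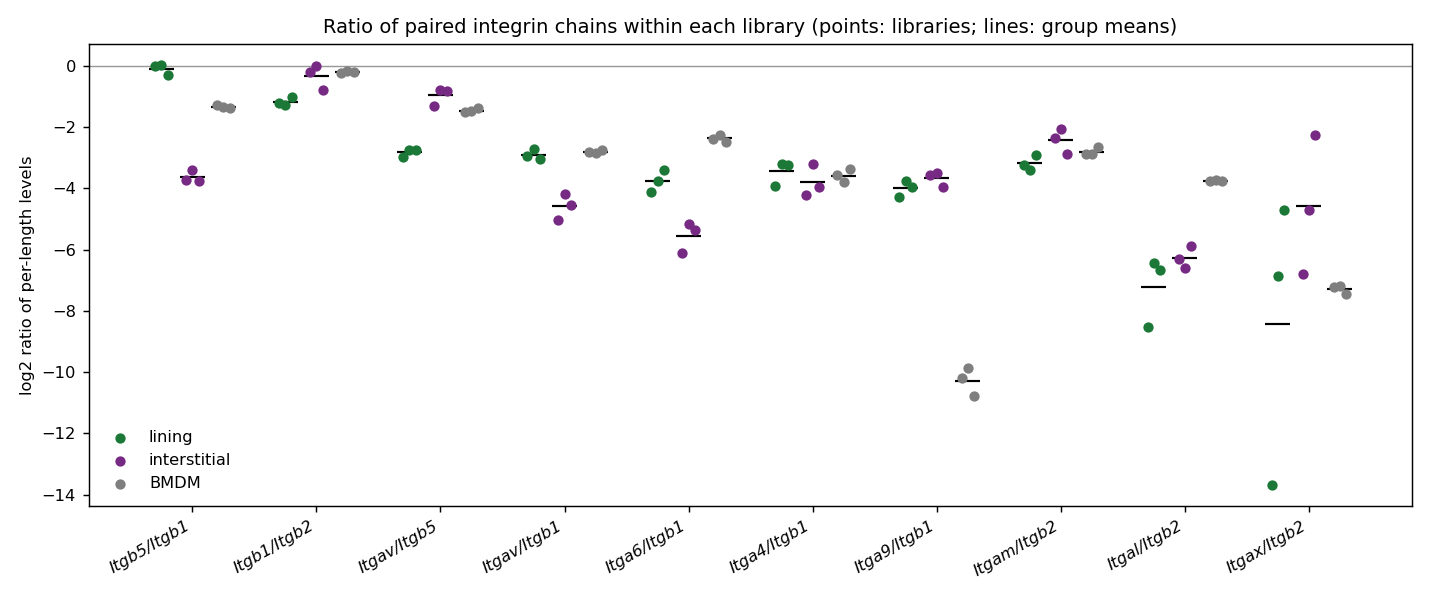
The log2 ratio of per-length levels of 10 pairs of chains within each library, with a point per library and a line at each group mean, where 0 means equal levels. The Itgb5 to Itgb1 ratio lies near 0 in lining (geometric mean 0.939) and lowest in interstitial macrophages (0.0809), and the lowest single point, Itgax to Itgb2 in lining A, comes from 0 Itgax counts.

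Of the 16 integrin chains that are not members, 10 passed the filter on low counts. Between lining and interstitial macrophages 1 was called, Itgb7, a partner of Itga4, which was lower in lining (-1.52 ± 0.34 SE, edgeR adjusted p = 0.0207). It was at 9.70, 18.7 and 14.3 CPM in lining, 25.3, 34.3 and 67.1 CPM in interstitial and 104 to 130 CPM in BMDM, the 3 groups in steps without overlap. The call was lost without lining A or lining C, with an adjusted p up to 0.0922 over the alternatives. The dendritic cell marker sum given with Itgax was likewise higher in each interstitial library than in each lining library, and its part was not tested. Among the other chains 2 were called without interstitial F. Against BMDM, 3 were called in lining (5 without D or without F) and 5 in interstitial macrophages (3 without E or G, 2 without H or I). Over all genes 43.5% and 44.8% were called in these comparisons, and 5.79% between the sorted groups. Itgb7 was lower in lining (-2.94, adjusted p = 2.70e-05) and in interstitial macrophages (-1.42, edgeR adjusted p = 0.00283).

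Itga8, a partner of Itgb1 that binds nephronectin, was at 16.4 to 19.2 CPM in BMDM against 0 to 0.764 CPM in the sorted libraries and lower in both sorted groups (log2 fold change -5.31 in lining and -5.69 in interstitial macrophages, edgeR adjusted p = 3.22e-04 and 1.91e-04). Higher against BMDM were Itgb4, the hemidesmosome chain, in lining (3.58, adjusted p = 0.0216) and in interstitial macrophages (2.96, adjusted p = 0.0427), and the collagen receptor chains Itga2 (4.12, adjusted p = 0.00689) and Itga11 (4.30, edgeR adjusted p = 0.0191) in interstitial macrophages. These 3 chains had group means of at most 3.32 CPM, and their calls depended on single libraries: Itgb4 was lost in lining without C or any BMDM library, and in interstitial macrophages without A, E, F or any BMDM library, Itga11 without G, H or I, and Itga2 without H or I. Itga5 was at 355, 392 and 332 CPM in lining, 144, 233 and 414 CPM in interstitial and 229, 217 and 192 CPM in BMDM, with log2 fold changes of 0.45 between the sorted groups (edgeR adjusted p = 0.448), 0.76 for lining against BMDM (adjusted p = 0.0545) and 0.31 for interstitial against BMDM (adjusted p = 0.406). Its interstitial libraries ran from the lowest to the highest of all 9, and without interstitial F it was called higher in lining than in interstitial macrophages (0.89, edgeR adjusted p = 0.0191) and its sign against BMDM turned (-0.18).

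Itgb3, the partner of Itgav in osteoclasts and of Itga2b in platelets, was at 2.42, 0.668 and 21.4 CPM in lining, 0, 3.91 and 41.4 CPM in interstitial and 26.1, 26.5 and 28.0 CPM in BMDM. Lining C and interstitial F were its high sorted libraries, as they were for Itgax, and no comparison was called (edgeR adjusted p from 0.365 to 0.777). Itga1, Itga2b and Itga3 had group means of at most 5.92 CPM and were called in no comparison. Itgad, a further partner of Itgb2, had no count in any sorted library and 0.461 to 0.546 CPM in BMDM.

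Intracellular partners switch integrins on and link them to actin, and 29 of a list of 30 such genes were tested. Between lining and interstitial macrophages 6 were higher and 2 lower (median log2 fold change 0.23), against 3.74% and 2.05% of all genes. The number of list genes called fell to 2 without any 1 of A, B, E, G or H and to 3 without I. Those higher with the smallest p were Parvg, the parvin of blood cells (2.29, adjusted p = 0.00189), Ptk2b, a focal adhesion kinase (0.79, adjusted p = 0.00455), and Fermt3, the kindlin of blood cells (0.45, edgeR adjusted p = 0.0421). The lower genes were Rap1a, the GTPase that brings talin to integrins (-0.56, adjusted p = 0.0312), and Zyx, a focal adhesion protein (-0.80, edgeR adjusted p = 0.0343). Parvg and Ptk2b kept their calls when any 1 library was left out, while Fermt3 lost its call without any library except C and F, Rap1a without any except C, D and F, and Zyx without any except D, F and I.

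Parvg and Ptk2b both stood highest in the cultures. Parvg was at 22.3, 35.9 and 19.5 CPM in lining, 2.22, 5.10 and 8.07 CPM in interstitial and 89.3, 93.4 and 84.3 CPM in BMDM. Lining was below BMDM by 1.74 (SE 0.30) and interstitial by 4.03 (SE 0.35) on the log2 scale (edgeR adjusted p = 6.43e-04 and 2.16e-06). Ptk2b was at 172, 177 and 176 CPM in lining, 90.4, 93.0 and 119.6 CPM in interstitial and 417, 395 and 413 CPM in BMDM. Its log2 fold changes against BMDM were -1.23 in lining and -2.01 in interstitial macrophages (edgeR adjusted p = 1.61e-05 and 3.12e-07). For both genes the order was BMDM, lining, interstitial with no overlap, which is the order of Itga6.

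Against BMDM the list had 14 higher and 4 lower genes in lining (median 0.50), where 23.1% of all genes were called higher and 20.5% lower. In interstitial macrophages it had 14 higher and 8 lower (median 0.42), where 23.4% of all genes were called higher and 21.3% lower. Tln2, a talin, was at 52.0 ± 15.0 CPM in lining, 26.1 ± 5.61 CPM in interstitial and 0.415 ± 0.333 CPM in BMDM (SD, n = 3), with no overlap between sorted cells and BMDM (log2 fold change 6.95 and 5.97 against BMDM, edgeR adjusted p = 3.78e-07 and 1.11e-06). Fermt2, the kindlin of adherent tissue cells, had 3 counts in all BMDM together, against 1850 in lining and 1348 in interstitial macrophages, which are ratios of 2630 (95% counting interval 900 to 12800) and 1630 (555 to 7890). Both intervals pool the libraries and leave out their spread, which was 111 to 167 CPM in lining and 23.5 to 83.3 CPM in interstitial. Paxillin (Pxn) was higher than BMDM in lining (1.21, edgeR adjusted p = 8.63e-06) and in interstitial macrophages (0.74, edgeR adjusted p = 3.99e-04). Zyx was also higher than BMDM in both, 4.01-fold in interstitial macrophages (edgeR adjusted p = 8.48e-06) and 2.30-fold in lining (edgeR adjusted p = 4.58e-04). Ptk2 was lower than BMDM in lining (-0.75, edgeR adjusted p = 0.00262). The fibroblast markers given with Itga9 differ between sorted cells and BMDM in the same direction as Tln2 and Fermt2. Between lining and interstitial macrophages, Tln2 and Fermt2 had higher means in lining and were not called (edgeR adjusted p = 0.156 each). The 7 fibroblast genes had a median log2 fold change of -0.58 there, with none called. The part of fibroblasts in the Tln2 and Fermt2 levels was not tested.

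Of 25 listed ligand genes 24 matched and 20 were tested. Lining macrophages had 5 higher and 0 lower than interstitial macrophages (median 0.31), or 3 higher without lining A, against 3.74% and 2.05% of all genes. They had 13 higher and 2 lower than BMDM (median 2.87), against 23.1% and 20.5% of all genes. Interstitial macrophages had 14 higher and 3 lower than BMDM (median 2.16), or 11 called without BMDM H, against 23.4% and 21.3% of all genes. F11r, the junctional adhesion molecule that the Itgal receptor binds, was at 448, 370.2 and 298 CPM in lining, 49.2, 72.2 and 83.9 CPM in interstitial and 33.5, 27.7 and 28.6 CPM in BMDM. It was 5.38-fold higher in lining than in interstitial macrophages (2.43 ± 0.21 SE, edgeR adjusted p = 3.74e-05) and higher than BMDM in both (3.63 and 1.21, adjusted p = 1.00e-07 and 4.57e-04). The groups stood apart in the order lining, interstitial, BMDM.

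Nephronectin (Npnt), the ligand of the Itga8 receptor, was at 38.8, 30.7 and 24.4 CPM in lining and at most 2.12 CPM in all other libraries. It was higher in lining than in interstitial macrophages by 4.79 ± 0.63 SE (edgeR adjusted p = 7.59e-04) and than in BMDM by 7.22 ± 0.68 (adjusted p = 4.72e-06). By group mean, its receptor chain Itga8 was thus highest where the ligand was lowest. Mfge8, the bridging protein that the receptor of Itgav and Itgb5 binds, was at 165, 149 and 128 CPM in lining, 80.2, 69.2 and 94.1 CPM in interstitial and 56.6, 62.4 and 61.3 CPM in BMDM. Its log2 fold changes were 0.86 ± 0.16 SE between lining and interstitial (edgeR adjusted p = 0.00742) and 1.29 ± 0.16 between lining and BMDM (adjusted p = 4.15e-05). Ligand and both receptor chains had their highest group mean in lining.

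Osteopontin (Spp1), bound by Itgav and Itga9 receptors, was by far highest in BMDM, at 13680, 10806 and 18959 CPM against 154 to 207 CPM in lining and 16.4 to 66.1 CPM in interstitial macrophages. Its log2 fold changes against BMDM were -6.34 ± 0.57 SE in lining and -8.71 ± 0.64 in interstitial macrophages (edgeR adjusted p = 3.11e-05 and 7.65e-06). The Itgal ligand Icam2 was lower than BMDM in lining (-3.08, adjusted p = 0.00752) and interstitial macrophages (-4.23, edgeR adjusted p = 0.00144), and the matrix protein Emilin1 in interstitial macrophages (-1.20, adjusted p = 9.08e-05). Icam1 was higher than in BMDM in interstitial macrophages (1.90 ± 0.32 SE, edgeR adjusted p = 7.12e-04) and in lining (1.89 ± 0.32, edgeR adjusted p = 7.59e-04). Periostin (Postn) had 1 count in all BMDM, 340 in interstitial macrophages and 44 in lining. The ratios to BMDM were 1230 in interstitial macrophages (95% counting interval 219 to 48700) and 188 in lining (32 to 7590). Both intervals pool the libraries and leave out their spread, which was 5.91 to 53.1 CPM in interstitial macrophages and 1.72 to 6.76 CPM in lining. Fibronectin (Fn1), named here after its values were seen, was at 11661, 11290.4 and 15048 CPM in lining, 359.5, 1499 and 11867 CPM in interstitial and 2.03, 2.43 and 2.90 CPM in BMDM, so that interstitial F alone reached the lining level. Postn and Fn1 are also made by fibroblasts, whose markers are given above with Itga9, and their part was not tested.

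For each member the genes nearest in pattern were found by the root mean square difference of log2 CPM, centred on each gene's mean, over the 9 libraries. The closest was Dock4 for Itgav (difference 0.149), Ass1 for Itgb5 (0.340), Rhoa for Itgb1 (0.0513), Rapgef5 for Itga6 (0.297), Stard9 for Itga4 (0.121) and Sema6d for Itga9 (0.207). For the leukocyte chains it was Mfge8 for Itgb2 (0.132), Tbc1d17 for Itgam (0.0982), Dkc1 for Itgal (0.245) and Flrt3 for Itgax (0.915). The next genes in order were Myo10 and Wbp1 for Itgav, AU020206 and Vangl2 for Itgb5, Tpd52l2 and Appl1 for Itgb1, Asrgl1 and Panx1 for Itga6, Rictor and Kmt2c for Itga4, Fos and Fcgrt for Itga9, Lonrf1 and Soga1 for Itgb2, Ppp3ca and Ric1 for Itgam, Hmgb3 and Tmem51 for Itgal, and Hbegf and Gja1 for Itgax. Itgax had no gene closer than 0.915, while every other member had one within 0.340. The 9 libraries share depth and group, so likeness here describes these libraries alone.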

How the data were processed

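Poly(A) RNA of 9 libraries was measured. The authors deposited raw read counts per gene. Per the file headers, featureCounts 1.6.1 counted reverse-stranded reads over exons of Ensembl release 91 (GRCm38), and its options for multi-mapping reads and for reads that overlap several genes were not set. The submitters' processing notes name STAR 2.5.4a, cutadapt 1.15 and bcl2fastq 2.17.1.14, and DESeq2 1.20.0 under R 3.5.0. Symbols were found for 53274 of the 53465 genes.

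In R 4.3.3, filterByExpr (min.count 10, min.total.count 15) selected the genes tested, TMM set the scaling, and edgeR 4.0.16 fitted a robust quasi-likelihood model of group means over the 9 libraries, with 6 residual degrees of freedom. Tests were 2-sided, with Benjamini-Hochberg adjustment over 12610 genes, and called at an adjusted p under 0.05. Simulated counts with a spread estimated from these data were also run through the fit, and no result here rests on them. SE was derived from each log2 fold change and its F statistic. SD is over the 3 libraries of a group. RPKM divides CPM by the merged exon length of the table. Alternatives were other scaling, filters, tests (DESeq2 1.42.0, limma 3.58.1), only the compared groups, and leaving out libraries.

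The members, gene lists and tests were chosen with earlier results of these data known. Named were all members, other chains that passed the filter, up to 3 higher and 3 lower list genes per comparison by smallest adjusted p, and the 3 nearest genes per member by log2 of CPM plus 1. Of the ligand list Cyr61 was not matched. 1 gene that the rule names is not reported here.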

Additional observations from a re-analysis of the deposited data

How the results depend on the processing

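Of the members called, Itgb5, Itgav and Itga6 between lining and interstitial macrophages, Itgb5, Itgam, Itga9, Itgb2, Itgal and Itga6 between lining and BMDM, and all 6 between interstitial macrophages and BMDM kept their calls and directions in all 17 alternatives. The number of members called without single libraries was 3 to 4, 6 to 8 and 6 to 8 in the 3 comparisons, and 4, 7 and 6 with neither lining C nor interstitial F, chosen after seeing the data. Fitting the compared groups alone ended the Itgb2 call between the sorted groups. DESeq2 called 9 members between interstitial macrophages and BMDM.

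Between lining and interstitial macrophages the 8 adaptor calls became 4 with DESeq2 size factors, with upper quartile scaling and with no filter, 2 with the compared groups alone and 2 to 8 without single libraries. The 5 ligand calls became 8 with the DESeq2 test, 3 with the compared groups alone and 3 to 7 without single libraries. The 1 call among other chains became 0 with limma-voom and with the compared groups alone, and 0 to 2 without single libraries. For lining against BMDM the 3 calls of other chains became 7 with limma-voom and 2 to 5 without single libraries. For interstitial macrophages against BMDM the 5 became 3 with the mean CPM filter and 2 to 7 without single libraries, and the 17 ligand calls became 11 to 17. The causes were not tested.

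Signs that turned belonged to fold changes that were not called. Without single libraries the log2 fold change between lining and interstitial macrophages ran from -0.0326 to 0.143 for Itgb1, from -0.398 to 0.680 for Itgal and from -3.45 to 0.33 for Itgax, and between interstitial macrophages and BMDM from -0.23 to 0.31 for Itga4 and from -0.18 to 0.57 for Itga5, which was -0.17 with neither lining C nor interstitial F. The 297 recomputed pair ratios moved by less than the larger SD of the compared groups. A mean of 3 libraries cannot move that far when 1 is left out. Leaving out single libraries could thus give no other outcome, and no steadiness is read from it. Depth limits Itgax at its lowest level, 0 counts in lining A. The lowest Itga9 levels, in BMDM, rest on 17 to 31 counts, which is above the floor. No paired analysis was possible because the libraries are lettered A to I without repeats, so no letter links a lining to an interstitial library.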
